A study of Rattus norvegicus with 8 samples.

Results

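The prostaglandin synthesis and receptor genes were followed in primary rat nucleus pulposus (NP) cells, which fill the centre of the intervertebral disc, after knockdown of Sirt6, a nuclear NAD-dependent deacylase. The group holds 10 genes chosen by name along the path from membrane lipid to receptor: Pla2g4a, Ptgs1, Ptgs2, Ptges, Ptges2, Ptges3, Ptgis, Ptger2, Ptger4 and Hpgd. Of these, 9 had a named row in the authors' table and passed the filter on low counts, among 13250 genes tested. Ptgis, the prostacyclin synthase, had no named row in that table, whose rows are those with more than 80 counts summed over the 8 libraries, and is treated as below that filter; its counts were not analysed here.

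Cells from the discs of adult Sprague Dawley rats were grown in DMEM with fetal bovine serum, transduced with lentivirus and selected with puromycin. The paper describes culture in hypoxia before protein extraction. Whether the cells used for RNA were also kept in hypoxia is not clear from the sources used here. Sirt6-KD cells (libraries S5 to S8, n = 4) received a mixture of ShSirt6 clones, so that the effects of single ShRNAs cannot be told apart, and Sirt6-Ctrl cells (S1 to S4, n = 4) received a control ShRNA. Both groups therefore carry a lentivirus and went through selection, and no untransduced cells were part of the comparison. The series record describes cells of 4 rats with a control for each, but the library names carry no rat number.

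Prostaglandins are short-lived lipid mediators. Phospholipase A2 frees arachidonic acid from membrane phospholipids, a cyclooxygenase (COX-1 or COX-2) converts it to the unstable intermediate prostaglandin H, and terminal synthases turn that intermediate into prostaglandin E2 (PGE2), prostacyclin or another prostanoid. PGE2 acts on G protein-coupled EP receptors, of which EP2 and EP4 raise cyclic AMP, and it is inactivated inside cells by a dehydrogenase. In the disc PGE2 is known as a mediator of inflammation and pain, and the inducible pair of COX-2 and microsomal PGE synthase is its best known source.

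The 4 Sirt6-Ctrl libraries held 31994838 to 40124813 counts each, and the 4 Sirt6-KD libraries 32382957 to 36600792. The target gene Sirt6 stood at 52.7 ± 3.78 CPM in Sirt6-Ctrl, against 20.6 ± 1.06 CPM in Sirt6-KD (mean ± SD, n = 4, where CPM is TMM-normalised counts scaled to library size), and its log2 fold change was -1.35 (SE 0.13; edgeR's quasi-likelihood test with Benjamini-Hochberg adjustment, adjusted p = 0.000713). Added spike-in RNA took 6.27% of the counts in S1 and 9.80% in S2, against 2.97% to 3.08% in S3 and S4 and 2.15% to 2.47% in the Sirt6-KD libraries (p = 0.0286 by a two-sided exact permutation test, which with 4 against 4 can go no lower). Scaling by the spike-ins moved the centre of all log2 fold changes (their median) from -0.016 to 0.94. Of 9 NP and chondrocyte markers 5 had a named row (Acan, Sox9, Krt8, Cd24 and Car3), while Krt18, Krt19, Tbxt and Col2a1 had none. A row under T, the older symbol of Tbxt, was not searched for. The markers' summed level was 64.7 to 109 CPM in Sirt6-Ctrl and 38.0 to 58.5 in Sirt6-KD. The markers did not all move alike. By the rule for calls given below, Car3 (log2 fold change -2.70) and Krt8 (-1.32) were lower. Cd24 (-0.98), Acan (-0.62) and Sox9 (0.48) were not called. Of 7 macrophage and leukocyte markers only Cd68, Csf1r and Cd14 had a row, Ptprc, Aif1, Adgre1 and Lyz2 did not, and the sum was 11.9 to 29.7 CPM against 15.0 to 23.8. Cd14 made up most of this sum. Log2 fold changes were 0.93 for Cd68, -0.23 for Csf1r and -0.38 for Cd14, none called. Of 5 endothelial markers only Tek had a row, at up to 0.509 CPM in Sirt6-Ctrl and 0.592 in Sirt6-KD, and the levels of Pecam1, Cdh5, Kdr and Vwf were not analysed here. Annulus and tendon markers (5 of 6 in the table, Col1a1 by far the highest) summed to 13432 to 25407 CPM in Sirt6-Ctrl and 8159 to 17559 in Sirt6-KD. Among them Scx was called lower (log2 fold change -1.20). Thbs4 (-1.91), Col1a1 (-0.63), Mkx (-0.48) and Pdgfra (0.82) were not called. The part of these shifts in the results that follow was not tested, and in bulk RNA fewer cells of a type and less RNA per cell cannot be told apart.

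In Sirt6-KD cells the inducible genes of PGE2 synthesis rose: Ptgs2 was 3.47-fold and Ptges 2.56-fold higher than in Sirt6-Ctrl. Ptges3, the constitutive cytosolic synthase, fell 1.61-fold. Ptgs1, Ptges2, Pla2g4a, the receptors Ptger2 and Ptger4, and Hpgd did not pass the test. Calls required both a fold change above 1.5 and, in edgeR's quasi-likelihood test after Benjamini-Hochberg adjustment across the whole table, an adjusted p under 0.05. By this rule 2 of 9 genes were higher, beside 8.02% of all genes tested, and 1 of 9 was lower, beside 10.7% (3 of 9 in either direction, beside 18.7%). The groups did not overlap for 3 of the 9 genes, beside 30.4% of all genes, and the median log2 fold change was -0.24 over the 9 genes and -0.016 over all genes. The median of the 9 is the value of Ptger2 and its sign was not stable: it was 0.55 without S2, 0.034 without S8, 0.20 without S1 and S2 and 0.91 in limma-voom. With libraries scaled by spike-ins no gene of the group was called, and without S1 and S2 the calls were 2 higher and 0 lower.

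**Figure D1:**
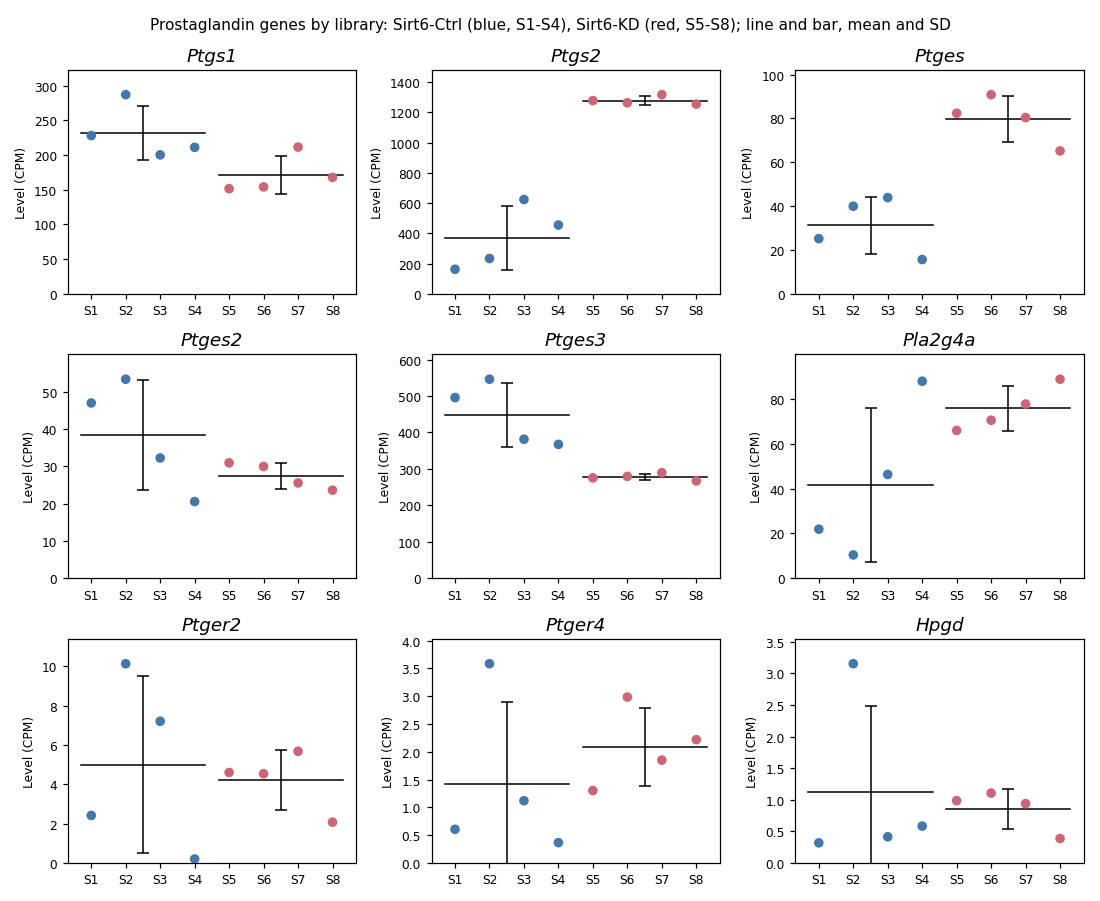
Normalised level of each measured gene in CPM (linear axis, 1 panel a gene) in the 4 Sirt6-Ctrl (blue) and 4 Sirt6-KD (red) libraries, with a line for the mean and a bar for the SD of each group (bars cut at 0). The Sirt6-KD points lie above all Sirt6-Ctrl points for Ptgs2 and Ptges, below them for Ptges3, and the groups overlap for the other genes.

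The upstream sequences of the 3 called genes are shown because expression of these genes is what differed between the groups. Each runs from 250 bases before the annotated start of the gene to 50 bases from it on, read 5′ to 3′ in the direction of transcription, from RefSeq on the GRCr8 assembly (the counts were made on Rnor_6.0, so the positions hold for GRCr8 only). Capitals mark matches, on either strand, to the letters GGGCGG (GC box) or CACGTG (E-box).

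Ptgs2 promoter, chr13:64713813-64714112, plus strand: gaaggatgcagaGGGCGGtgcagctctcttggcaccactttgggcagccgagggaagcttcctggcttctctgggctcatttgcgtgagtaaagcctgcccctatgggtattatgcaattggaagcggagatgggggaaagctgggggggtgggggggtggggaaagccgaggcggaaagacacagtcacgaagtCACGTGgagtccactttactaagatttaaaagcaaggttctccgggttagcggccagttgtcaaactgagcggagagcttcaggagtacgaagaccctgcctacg

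Ptges promoter, chr3:34586938-34587237, minus strand: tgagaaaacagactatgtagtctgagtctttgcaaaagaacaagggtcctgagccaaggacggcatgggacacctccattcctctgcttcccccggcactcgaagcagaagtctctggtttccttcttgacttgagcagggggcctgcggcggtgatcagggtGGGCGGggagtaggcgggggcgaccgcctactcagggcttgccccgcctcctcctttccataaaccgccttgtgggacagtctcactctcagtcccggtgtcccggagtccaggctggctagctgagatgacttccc

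Ptges3 promoter, chr7:1075059-1075358, plus strand: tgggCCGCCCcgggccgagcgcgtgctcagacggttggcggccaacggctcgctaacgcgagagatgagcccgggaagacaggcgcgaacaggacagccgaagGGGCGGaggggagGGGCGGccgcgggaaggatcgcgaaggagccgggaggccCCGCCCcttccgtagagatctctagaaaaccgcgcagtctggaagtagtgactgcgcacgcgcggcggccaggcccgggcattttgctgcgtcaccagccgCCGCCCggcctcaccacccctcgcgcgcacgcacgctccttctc

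The Ptgs2 window held 1 GC box at position -238 and 1 E-box at -55 from the start. The Ptges window held 1 GC box at -87, and the Ptges3 window held 5 GC boxes, at -246, -147, -134, -95 and +7. Among 33469 rat promoter windows of the same length 33.1% held a GC box and 6.42% an E-box. The G+C content was 56.7% for Ptgs2, 59.7% for Ptges and 71.7% for Ptges3, against a median of 51.7% over all windows. The shares of windows with a match were not adjusted for G+C content. Windows were found for 8 of the 10 genes, not for Ptges2 and Ptgis. Of the other windows, that of Pla2g4a held the TATA letters TATAAA (14.2% of all windows), and that of Hpgd held a GC box and an E-box. None of the 8 windows held TGACGT (the cyclic AMP response core, 7.94% of all windows), TGANTCA (AP-1, 7.33%) or the kappaB consensus searched (1.3%). These matches describe letters in a short window and do not show binding.

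Release of arachidonic acid is the first step. Pla2g4a encodes cytosolic phospholipase A2 alpha, the calcium-activated enzyme that prefers arachidonate-containing phospholipids, and lies beside Ptgs2 on chromosome 13, with 2 annotated genes and no protein-coding gene between them. Its level was 21.9, 10.4, 46.3 and 87.9 CPM in Sirt6-Ctrl S1 to S4 and 66.0, 70.5, 77.7 and 88.8 CPM in Sirt6-KD S5 to S8. The Sirt6-KD libraries were close to each other, while the Sirt6-Ctrl libraries ranged widely, with S4 as high as the highest Sirt6-KD library. The means were 41.6 ± 34.3 and 75.8 ± 9.96 CPM, and the log2 fold change of 0.86 had a 95% interval from -0.25 to 1.97 (edgeR, adjusted p = 0.24). The call turned on S4: without it the log2 fold change was 1.53 and passed the test (edgeR, adjusted p = 0.0299), and without S1 and S2 it was 0.19.

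Of the cyclooxygenases, Ptgs2 was called and Ptgs1 was not. Ptgs2 encodes COX-2, the isoform induced by cytokines, growth factors and serum. Its level was 162, 233, 623 and 455 CPM in Sirt6-Ctrl S1 to S4 and 1278, 1264, 1317 and 1255 CPM in Sirt6-KD S5 to S8, from 5643 to 21191 counts and 42339 to 50561 counts. All Sirt6-KD libraries lay above all Sirt6-Ctrl libraries and within a narrow band, while S1 and S2 lay well below S3 and S4. The means were 368 ± 211 and 1279 ± 27.6 CPM, giving a log2 fold change of 1.80 (SE 0.36, 95% interval 1.01 to 2.58; edgeR, adjusted p = 0.0088). Leaving out any single library gave 1.57 to 2.17 with the call kept, and without S1 and S2 the log2 fold change was 1.26 (edgeR, adjusted p = 0.00336).

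Ptgs1 encodes COX-1, the isoform present at a steady level in most tissues. It stood at 228, 287, 200 and 211 CPM in Sirt6-Ctrl S1 to S4 and at 151, 154, 211 and 168 CPM in Sirt6-KD S5 to S8. The groups overlapped through S7. The means were 231.5 ± 38.7 and 171 ± 27.8 CPM, and the log2 fold change of -0.44 (SE 0.16, 95% interval -0.79 to -0.08) missed the threshold after adjustment over all rows (edgeR, adjusted p = 0.0741).

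A ratio of counts within a library does not depend on how libraries are scaled. The Ptgs2 to Ptgs1 ratio of raw counts, not corrected for transcript length, was 0.711, 0.813, 3.11 and 2.15 in Sirt6-Ctrl S1 to S4 and 8.44, 8.21, 6.23 and 7.48 in Sirt6-KD S5 to S8. Every Sirt6-KD library lay above every Sirt6-Ctrl library, with medians of 7.85 and 1.48. In S1 and S2 Ptgs2 had fewer counts than Ptgs1, and in the other 6 libraries it had more. These ratios are given as a description, without a test. Since Ptgs2 had already been called higher, they are no separate evidence.

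Of the terminal PGE synthases, Ptges rose and Ptges3 fell. Ptges encodes microsomal PGE synthase-1, the inducible, glutathione-dependent enzyme that is often induced together with COX-2. Its level was 25.2, 39.9, 43.9 and 15.6 CPM in Sirt6-Ctrl S1 to S4 and 82.4, 90.8, 80.4 and 65.2 CPM in Sirt6-KD S5 to S8. The lowest Sirt6-KD library lay above the highest Sirt6-Ctrl library. The means were 31.1 ± 13.1 and 79.7 ± 10.7 CPM, with a log2 fold change of 1.36 (SE 0.29, 95% interval 0.72 to 1.99; edgeR, adjusted p = 0.011). With single libraries left out it was 1.13 to 1.57 with the call kept, and without S1 and S2 it was 1.43 (edgeR, adjusted p = 0.035).

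Ptges3 encodes p23, a co-chaperone of Hsp90 that is also named cytosolic PGE synthase. It stood at 496, 546, 381 and 367 CPM in Sirt6-Ctrl and at 275, 279, 290 and 267 CPM in Sirt6-KD. All Sirt6-KD libraries lay below all Sirt6-Ctrl libraries. The means were 448 ± 87.3 and 278 ± 9.41 CPM, and the log2 fold change was -0.69 (SE 0.15, 95% interval -1.02 to -0.35; edgeR, adjusted p = 0.0127). The call was lost without S2, where the log2 fold change of -0.56 fell short of the fold threshold (edgeR, adjusted p = 0.0195), and likewise without S1 and S2, at -0.42 (edgeR, adjusted p = 0.0312). Rows of related genes were far smaller, Ptges3l1 with 112 to 428 counts a library and Ptges3l with 232 to 817, and whether they share reads with Ptges3 was not tested.

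Ptges2, the membrane-associated synthase-2, was at 47.0, 53.3, 32.2 and 20.5 CPM in Sirt6-Ctrl and at 30.9, 29.9, 25.5 and 23.6 CPM in Sirt6-KD. The groups overlapped, since S4 was the lowest library of all. The log2 fold change was -0.48 (SE 0.27; edgeR, adjusted p = 0.227). Without S4 it was -0.69 and passed the test (edgeR, adjusted p = 0.0418), and without S1 and S2 it was 0.070. The Ptges to Ptges2 ratio of raw counts was 0.536, 0.749, 1.36 and 0.759 in Sirt6-Ctrl S1 to S4 and 2.66, 3.03, 3.15 and 2.76 in Sirt6-KD S5 to S8. Every Sirt6-KD library lay above every Sirt6-Ctrl library. The inducible gene had the larger count in all Sirt6-KD libraries and in 1 of 4 Sirt6-Ctrl libraries (S3). This ratio was not among those planned at the start. Since Ptges had already been called higher, the ratio is a description only and no separate evidence.

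**Figure D2:**
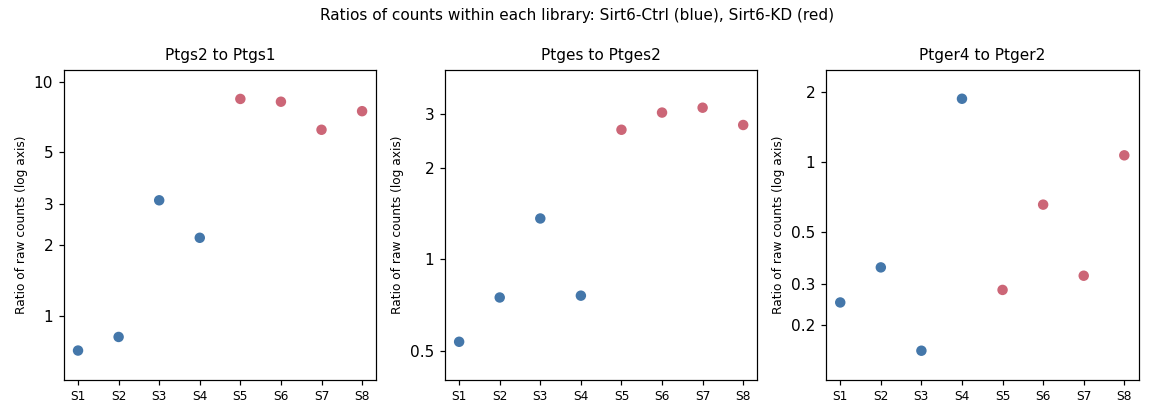
Ratios of raw counts of gene pairs in each library (log axis, no unit), with Sirt6-Ctrl in blue and Sirt6-KD in red. Ptgs2 to Ptgs1 and Ptges to Ptges2 are higher in all 4 Sirt6-KD libraries than in any Sirt6-Ctrl library, while Ptger4 to Ptger2 overlaps between the groups. The ratio of Ptges to Hpgd, which also overlaps, is not plotted.

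The PGE2 receptors were expressed at low levels. Ptger2 encodes EP2, a Gs-coupled receptor that stays responsive during long exposure to PGE2. Its level was 2.41, 10.1, 7.21 and 0.194 CPM in Sirt6-Ctrl and 4.60, 4.54, 5.68 and 2.07 CPM in Sirt6-KD, from 8 to 328 counts a library. Sirt6-Ctrl held both the highest library, S2, and the lowest, S4. The log2 fold change was -0.24 with a 95% interval of -2.08 to 1.60 (edgeR, adjusted p = 0.868), and its sign depended on the setting: it was 0.38 without S2 and 0.034 without S8.

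Ptger4 encodes EP4, the Gs-coupled receptor that is internalised after PGE2 binding. It stood at 0.603, 3.59, 1.12 and 0.363 CPM in Sirt6-Ctrl and at 1.30, 2.99, 1.85 and 2.22 CPM in Sirt6-KD, from 15 to 116 counts a library. S2 was again the highest library, and the other Sirt6-Ctrl libraries lay below all Sirt6-KD libraries. The log2 fold change of 0.56 had a 95% interval of -1.10 to 2.23 (edgeR, adjusted p = 0.633). Without S2 it was 1.60 (edgeR, adjusted p = 0.0848), and without S1 and S2 it was 1.51 (edgeR, adjusted p = 0.159). The Ptger4 to Ptger2 ratio of counts was 0.155 to 1.88 across the Sirt6-Ctrl libraries and 0.283 to 1.07 across the Sirt6-KD libraries. Neither receptor gene passed the test under any alternative run.

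Hpgd encodes the NAD-dependent dehydrogenase that oxidises PGE2 to its inactive keto form. It was at 0.316, 3.15, 0.412 and 0.581 CPM in Sirt6-Ctrl and at 0.983, 1.11, 0.938 and 0.385 CPM in Sirt6-KD, from 11 to 102 counts a library. S2 stood far above the other Sirt6-Ctrl libraries, of which S4 and S3 lay among the Sirt6-KD values and S1 below them. The log2 fold change was -0.38 with a 95% interval of -2.34 to 1.57 (edgeR, adjusted p = 0.791), and without S2 it was 0.97. The Ptges to Hpgd ratio of counts was 12.7 to 106.5 across the Sirt6-Ctrl libraries and 82.2 to 169.5 across the Sirt6-KD libraries, and the groups overlapped.

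**Figure D3:**
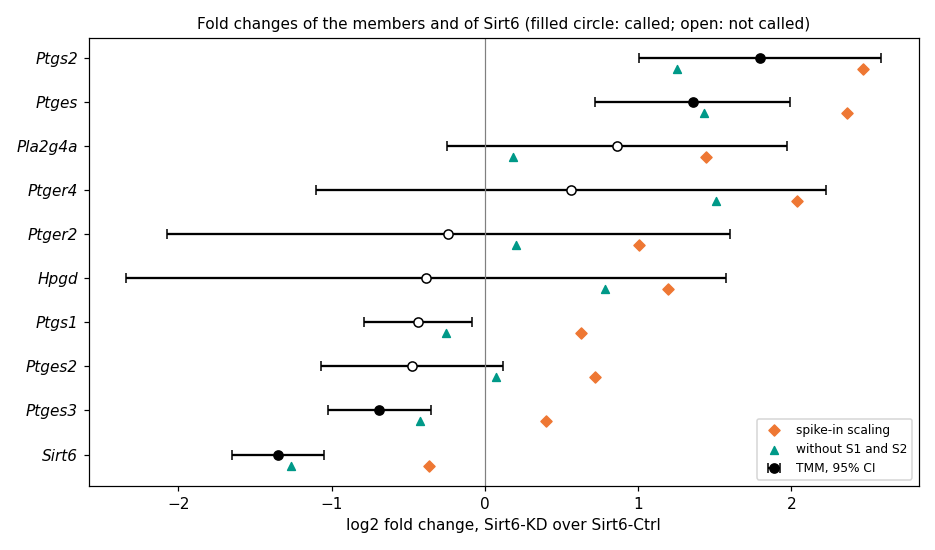
Log2 fold change (Sirt6-KD over Sirt6-Ctrl) of each measured gene and Sirt6 under TMM normalization (circles, filled if called, with bars for the 95% confidence interval), with spike-in scaling (diamonds) and without S1 and S2 (triangles). Ptgs2 and Ptges stay above 0 under all 3 settings, as do Pla2g4a and Ptger4, which were not called. Ptges3 is at -0.69 with TMM, -0.42 without S1 and S2 and 0.40 with spike-in scaling, under which the median of all genes is 0.94.

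Beyond these genes, 56 further genes of the pathway and of the cyclic AMP response were examined. Their lists were written from general knowledge, but with earlier results of these data known. Of the 56 genes, 43 had a named row and 41 passed the filter on low counts: 7 were higher in Sirt6-KD (8.02% of all genes), 3 were lower (10.7% of all genes) and 31 were not called. Of the 7 higher genes, 4 were in the cyclic AMP response list, which had the highest list median (0.92) and whose genes many other signals reach. Over the 41 pathway genes that passed the filter the median log2 fold change was 0.30, against -0.016 for all genes tested. Without S1 and S2 the calls were 4 higher and 2 lower, and with spike-in scaling there were none.

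Among phospholipases and genes of arachidonate supply, 1 of 11 tested genes rose (beside 8.02% of all genes) and 1 fell (beside 10.7%), shares near those of all genes, with a median log2 fold change of 0.32. Lpcat3, which inserts arachidonate into phospholipids, fell from 64.9 ± 11.6 to 34.5 ± 7.23 CPM, a log2 fold change of -0.91 (SE 0.19; edgeR, adjusted p = 0.011), and its call held with each library left out. Fads1, the delta-5 desaturase that makes arachidonate, rose from 100.02 ± 27.7 to 163 ± 43.7 CPM, but the groups overlapped and its call was lost in 6 of 8 fits with a library left out (edgeR, adjusted p = 0.0472 with all libraries, 0.145 at the highest). Elovl5, a fatty acid elongase, had a log2 fold change of -0.45 (edgeR, adjusted p = 0.0297), below the fold threshold. The other phospholipase genes tested, Pla2g2a, Pla2g4b, Pla2g5, Pla2g6 and Pla2g12a, had log2 fold changes from -0.27 to 0.90 and were not called.

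Tbxa2r, the receptor of thromboxane, was the 1 called gene among 5 tested in the list of other prostanoid receptors and a receptor regulator. Thus 1 of 5 was lower, beside 10.7% of all genes, and 0 were higher, beside 8.02%. It had 192, 269, 163 and 181 counts in Sirt6-Ctrl S1 to S4 and 15, 27, 21 and 13 counts in Sirt6-KD S5 to S8. All Sirt6-KD libraries lay below all Sirt6-Ctrl libraries. The level fell from 5.75 ± 1.77 to 0.543 ± 0.188 CPM, a log2 fold change of -3.40 (SE 0.48, 95% interval -4.46 to -2.34; edgeR, adjusted p = 0.00277), and leaving out any single library gave -3.65 to -3.15. Ptger1 (EP1) at -0.18, Ptgfr (the prostaglandin F receptor) at -0.14, Ptgir (the prostacyclin receptor) at -1.24 and Ptgfrn (a regulator of the prostaglandin F receptor) at 0.25 were not called. The median log2 fold change of the 5 was -0.18. Among 3 other synthases and reductases tested, Ptgr1, Ptgr2 and Prxl2b, none was called by edgeR (beside 18.7% of all genes), DESeq2 or limma-voom. The median of the 3 was -0.41. In edgeR 1 of the 3 (Ptgr1) had an unadjusted p under 0.05, with an adjusted p of 0.128.

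Of 3 prostaglandin transporters tested, Abcc4, an ATP-driven exporter of PGE2, rose from 22.8 ± 4.91 to 34.7 ± 1.91 CPM (log2 fold change 0.60, SE 0.19; edgeR, adjusted p = 0.042). The groups did not overlap, but the call was lost in 6 of 8 fits with a library left out (edgeR, adjusted p up to 0.116). The importers Slco2a1 and Slco3a1 had log2 fold changes of 0.31 and -0.40 and were not called, and the median of the 3 transporters was 0.31. Thus 1 of 3 was higher, beside 8.02% of all genes, and 0 were lower, beside 10.7%. Among regulators of COX-2 mRNA and of phospholipase A2, 1 of 6 tested genes rose (beside 8.02% of all genes) and 1 fell (beside 10.7%), with a median of -0.25. Zfp36l1, an RNA-binding protein that promotes decay of AU-rich mRNAs, rose from 107 ± 24.3 to 228 ± 42.5 CPM (log2 fold change 1.10, SE 0.19; edgeR, adjusted p = 0.0054), and its call held with each library left out. Anxa1, a glucocorticoid-regulated inhibitor of phospholipase A2, fell from 910.1 ± 155 to 594 ± 101 CPM (log2 fold change -0.61, SE 0.17; edgeR, adjusted p = 0.0309), but the groups overlapped and the call was lost in 6 of 8 fits with a library left out.

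Genes that cyclic AMP is known to induce were examined because EP2 and EP4 act through it, although many other signals reach the same genes. Of 10 tested, 4 were higher in Sirt6-KD by edgeR (beside 8.02% of all genes) and 0 lower (beside 10.7%), with 1 lower by DESeq2, Crem, and 0 by limma-voom. The count of higher genes fell to 1 without S1, S5, S6 or S7 and to 2 without S8, and was 6 without S3. The median log2 fold change was 0.92, against -0.016 for all genes tested. Fosb, an AP-1 transcription factor, rose from 28.7 ± 15.9 to 90.3 ± 23.2 CPM (log2 fold change 1.65, SE 0.34; edgeR, adjusted p = 0.0101). Pde4b and Pde4d encode phosphodiesterases that degrade cyclic AMP. Pde4b rose from 31.5 ± 18.3 to 75.6 ± 11.0 CPM (log2 fold change 1.26; edgeR, adjusted p = 0.035), and Pde4d from 1.23 ± 1.06 to 5.49 ± 1.43 CPM (log2 fold change 2.15; edgeR, adjusted p = 0.0436). Sik1, a salt-inducible kinase that restrains CREB co-activators, rose from 30.1 ± 8.41 to 50.5 ± 4.47 CPM (log2 fold change 0.75; edgeR, adjusted p = 0.0297). The groups did not overlap for any of these 4 called genes and overlapped for the other 6. Sirt6-KD thus lay above for 4 of 10 genes, beside 14.8% of all genes. Calls favour genes whose groups lie apart, so this adds little to the calls. Crem had a log2 fold change of -0.77 (edgeR, adjusted p = 0.0737, below 0.05 before adjustment), and Nr4a1, Nr4a2, Nr4a3, Per1 and Areg were not called, with values from -0.36 to 1.59. Fosb kept its call with each library left out, whereas Pde4b, Pde4d and Sik1 each lost it in 5 of 8 such fits (edgeR, adjusted p up to 0.114). Without S1 and S2 the list had 3 genes higher and a median of 0.66.

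**Figure D4:**
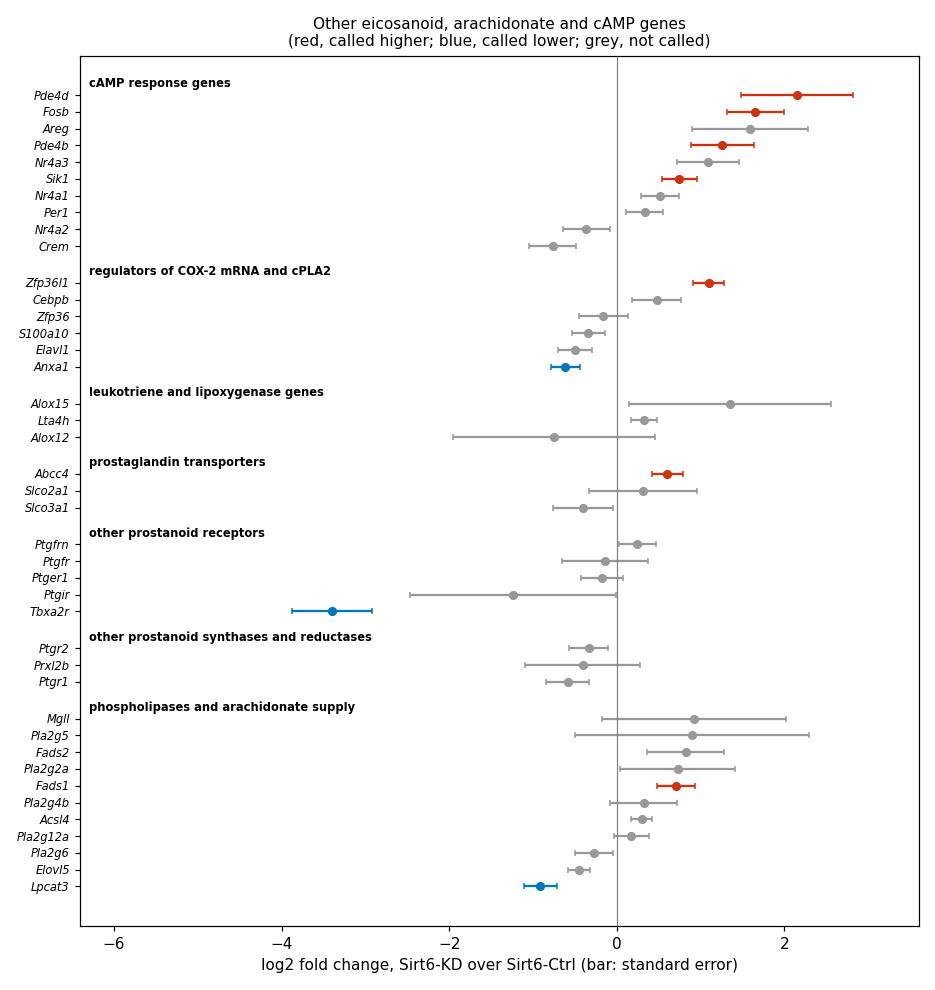
Log2 fold change (Sirt6-KD over Sirt6-Ctrl) of each further pathway gene tested, grouped by list, with bars for the SE, red for genes called higher, blue for genes called lower, grey for the rest and a vertical line at 0. The cyclic AMP response genes have the highest list median (0.92), and Tbxa2r has the lowest value (-3.40).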

How the data were processed

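RNA from primary rat NP cells (Sirt6-Ctrl and Sirt6-KD, n = 4 each) was measured by RNA-seq. Raw counts, unnormalized, were deposited for each Ensembl gene and ERCC spike-in. Their second deposited table gives gene names, a size-factor-normalized signal for each library, and their own log2 fold changes, p-values and adjusted p-values, of which only the gene names were used. The submitters' processing notes name Trimmomatic 0.36, STAR 2.5.2b, featureCounts, Subread 1.5.2, DESeq2 and the build Rnor_6.0, without roles. The strand setting of the counting is not given in the sources used here.

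Rows were filtered with filterByExpr (13313 of 32975 kept, 63 of them spike-ins), normalized by TMM and tested with edgeR 4.0.16 in R 4.3.3 (glmQLFit and glmQLFTest, unpaired, two-sided, Benjamini-Hochberg over all rows tested). Calls needed a fold change above 1.5 with adjusted p under 0.05. The SE was the log2 fold change divided by the square root of F, and the 95% interval used the fit's degrees of freedom. A count of 3 corresponds to 0.0727 to 0.0927 CPM, a floor that covers counting error only, since PCR copies were not told apart by molecular identifiers. P-values measure the spread between libraries, and nothing in the library labels says which rat a library came from. No pair of libraries in a group agreed within counting noise, as 1 library deposited again would (lowest chi-square per degree of freedom 18.2).

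The 18 alternatives covered normalization, filters, DESeq2 1.42.0, limma-voom (limma 3.58.1), glmTreat, spike-in rows and libraries left out. The code was tested on simulated data. Genes named are the members, Sirt6, the list genes past the thresholds, list genes below the filter with at least 20 counts in a library, and list genes whose level the text needs. The members and lists were chosen with earlier results of these data known, so their directions are not independent evidence. Promoter windows were matched by symbol to RefSeq (GRCr8).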

Additional observations from a re-analysis of the deposited data

Results flagged for a closer look

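The groups examined were those of each member tested, Sirt6 and each further gene called in edgeR, in each condition. Of these 40 groups of 4 libraries, 1 held a library far from the others, where chance alone gives about 1 in 20 groups, or 2. Other genes named in the text, among them Crem, Tbxas1 and Mboat7, were not examined in this way. Crem stood at 25.7 CPM in S1, against 15.5, 15.9 and 16.3 CPM in S2 to S4. In Sirt6-Ctrl the S2 library had the highest Hpgd level (3.15 CPM against 0.316, 0.412 and 0.581), and its gap to the next library was 0.906 of the whole range, above Dixon's 95% critical value for 4 samples. S2 also had the highest spike-in share (9.80%).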

How the results depend on the processing

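Spike-in scaling changed the most: no pathway gene was called (members 0 higher and 0 lower, further genes 0 and 0), the calls over all genes went from 1063 higher and 1416 lower to 20 and 4, and Sirt6 was at -0.36 without passing the test. Against a median of 0.94 for all genes it turned the sign of Ptgs1 (0.63), Ptges2 (0.72), Ptges3 (0.40), Ptger2 (1.01), Hpgd (1.20), Lpcat3 (0.073), Elovl5 (0.48), Ptger1 (0.73), Ptgfr (0.47), Anxa1 (0.41) and Crem (0.26). Relative to that median only Ptger2 (0.063) and Hpgd (0.25) of these turned sign, the other 9 stayed negative (Ptgs1 -0.32, Ptges2 -0.22, Ptges3 -0.55), Ptgs2 was at 1.53, Ptges at 1.42 and Sirt6 at -1.31. Testing against a fold of 1.5 (glmTreat) left 0 members higher, 0 lower, and 0 and 1 further genes, with 92 and 185 over all genes. Without S1 and S2 no member was lower (0), 4 further genes were higher, and Ptges2 (0.070), Ptger2 (0.20) and Hpgd (0.78) turned positive. With single libraries left out, 2 to 3 members were higher and 0 to 2 lower, 2 to 10 further genes were higher and 2 to 3 lower, and over all genes 445 to 1699 were higher and 700 to 1913 lower. Signs turned for Ptger2 (-0.64 to 0.38; positive without S2 or, at 0.034, S8), Hpgd (-0.66 to 0.97; positive without S2) and Ptgfr (-0.43 to 0.58; positive without S4 or, at 0.036, S5). The group difference in spike-in share was -4.09 to -1.82 points. By the exact permutation test its p was 0.0286 without any 1 Sirt6-Ctrl library, but 0.171 without any 1 Sirt6-KD library. DESeq2 called 1606 genes higher and 1734 lower. In limma-voom Ptger2 (0.91), Hpgd (0.21) and Ptgfr (0.091) were positive. The cause of these changes was not tested. Ptgs2 and Ptges kept direction and call under the other normalizations, filters and tests, and with any library left out. Under spike-in scaling (2.47 and 2.37; edgeR, adjusted p = 0.0744 and 0.0711) and glmTreat (1.80 and 1.36; edgeR, adjusted p = 0.0556 and 0.0853) they kept direction but not the call. No paired analysis was possible because the labels and columns carry no number shared between the groups. Ptger2, Ptger4 and Hpgd had 8 to 328 counts a library, and the part of depth in their wide intervals was not tested.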

Other observations

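Several genes of the pathway were barely expressed, and their highest library differed from gene to gene. Tbxas1, the thromboxane synthase, had 0, 128, 1 and 10 counts in Sirt6-Ctrl S1 to S4 and 1, 1, 8 and 5 counts in Sirt6-KD, and was below the filter on low counts. Mboat7, a lysophospholipid acyltransferase, had 0, 75, 7 and 0 counts in Sirt6-Ctrl and 5, 4, 3 and 21 in Sirt6-KD, and was likewise below the filter. Alox12, a lipoxygenase, had 0, 115, 12 and 38 counts in Sirt6-Ctrl and 39, 23, 29 and 10 in Sirt6-KD. S2 was the highest library for these 3 genes, but it had 0 counts of Pla2g5 (highest in S7, 115), 1 of Mgll (highest in S5, 50), 3 of Ptgir (highest in S4, 66) and 1 of Alox15 (highest in S7, 34). Alox12 and these 4 genes were chosen for mention after their values were seen. Of 8 leukotriene and lipoxygenase genes 5 had no named row. The other 3, Lta4h, Alox12 and Alox15, had log2 fold changes of 0.32, -0.75 and 1.35, with a median of 0.32. None was called by edgeR, DESeq2 or limma-voom (lowest adjusted p in edgeR 0.15, and 0 at an unadjusted p under 0.05). Among all genes tested edgeR called 18.7%.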
